A study of Mus musculus with 9 samples.

Results

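The 10 genes described here are known to set how long mice sleep, and were followed through 9 brain libraries: the salt-inducible kinases Sik1, Sik2 and Sik3, the calcium/calmodulin-dependent kinases Camk2a and Camk2b, the sodium leak channel Nalcn, the T-type calcium channels Cacna1g and Cacna1h, and the small-conductance potassium channels Kcnn2 and Kcnn3. They were chosen by name, for their known effects on sleep amount, and with earlier results of these data known. They make up 10 of the 54446 genes counted. All 10 were among the 17355 genes with enough counts to be tested. The libraries hold polyadenylated RNA from brain tissue of adult male mice aged 3 to 4 months. There were 3 libraries labelled Tfap2b+/-, 3 labelled Tfap2a+/- and 3 of wild type (B6N), and no treatment is given. Tfap2a and Tfap2b encode the transcription factors AP-2 alpha and AP-2 beta, whose relatives in worms are known to be needed for sleep. The part of the brain taken, the make-up of either allele and whether each library came from its own animal are not stated in the sources used here. The p-values therefore measure how far these samples spread, and that spread may be technical.

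Sleep need is thought to be held partly in the phosphorylation state of synaptic proteins, with kinases and calcium entry as candidate parts. SIK kinases are switched on by the kinase LKB1 (Stk11) and switched off by protein kinase A. They phosphorylate the CRTC coactivators of CREB and the class IIa histone deacetylases, and a splice mutation that frees SIK3 from protein kinase A, the Sleepy allele, makes mice sleep long. CaMKII is the most abundant protein kinase of forebrain synapses and is switched on by calcium and calmodulin. NALCN passes a resting sodium current and its Dreamless mutation shortens REM sleep in mice. T-type channels carry the calcium of thalamic bursts, and SK channels open when calcium enters and pull the membrane back down. Mice that lack Camk2a, Camk2b, Cacna1g, Cacna1h, Kcnn2 or Kcnn3 have been described to sleep less.

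None of the 10 genes differed between genotypes in a way that passed the test over all genes, in any of the 3 comparisons. The smallest Benjamini-Hochberg adjusted p from edgeR's quasi-likelihood test was 0.48 in the libraries labelled Tfap2b+/- against wild type (Nalcn), 0.999 in Tfap2a+/- against wild type and 0.42 between the heterozygotes (Kcnn2). The percentage of all 17355 genes that passed was 0 in each comparison too, and 10.6%, 3.84% and 11.5% had an unadjusted p under 0.05. Of the 10 genes, 0, 0 and 1 did. DESeq2 called 175, 30 and 228 genes in these comparisons, and none of the 10 was among them.

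Which transcripts dominate can be read only per length, so counts scaled to library size (CPM, with TMM factors) were divided by the kilobases of annotated exon. That length takes in every annotated exon of a gene, so levels and shares per kb depend on the annotation. Camk2a was the highest of the 10 at 454 ± 127 CPM per kb (SD over 9 libraries), followed by Camk2b at 92.3 ± 9.08 CPM per kb and Sik3 at 20.7 ± 2.29 CPM per kb. The lowest value of each of these 3 genes lay above the highest of the next, so this top order held in all 9 libraries. Below them the ranges ran into each other: Cacna1g (11.9 ± 2.63 CPM per kb) exceeded Nalcn (9.95 ± 0.899) in 6 of 9 libraries, and Nalcn exceeded Cacna1h (7.14 ± 1.49) in 9 of 9. The last 4 could not be ordered beyond their spread. Kcnn2 was at 4.41 ± 1.05, Sik2 at 4.27 ± 0.597, Kcnn3 at 3.89 ± 0.899 and Sik1 at 3.45 ± 1.49 CPM per kb, and each exceeded the next in only 5 or 6 of 9 libraries.

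The genes also differed in how steady they were. Nalcn varied least, with its highest library 1.30 times its lowest, followed by Sik3 at 1.35 times, Camk2b at 1.40 times and Sik2 at 1.51 times. Camk2a and Sik1 varied most, 3.18-fold and 3.16-fold. The 4 channels Cacna1g, Kcnn2, Kcnn3 and Cacna1h lay between, at 1.87-fold, 2.04-fold, 2.09-fold and 2.20-fold.

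**Figure D1:**
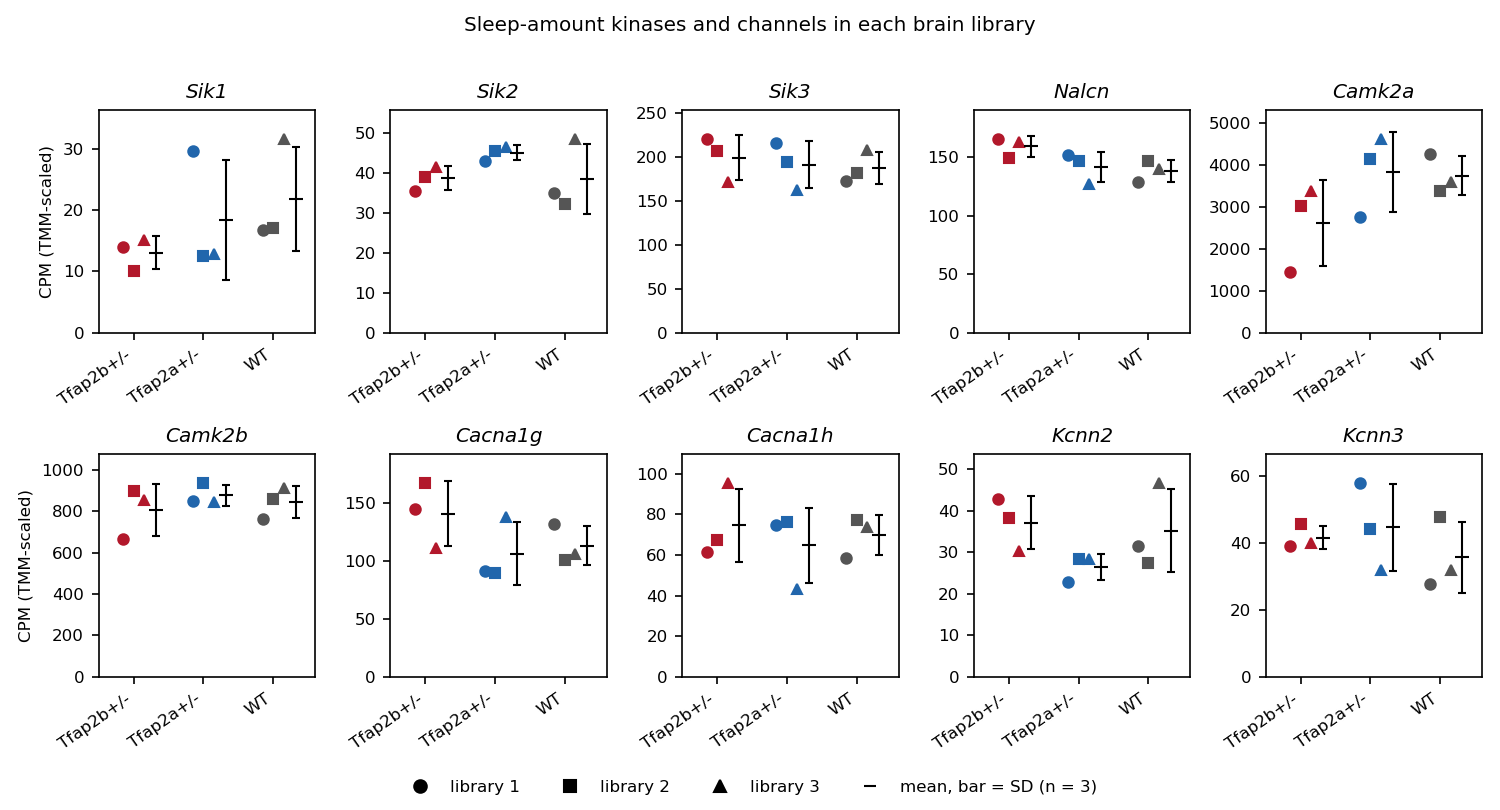
TMM-scaled CPM of each of the 10 genes (vertical axes, from 0) in the 3 libraries labelled Tfap2b+/- (red), the 3 of Tfap2a+/- (blue) and the 3 of wild type (WT, grey), with the group mean and its SD (n = 3) to the right of the points. Sik1 reached 31.5 CPM in wild-type library 3 and 29.7 CPM in Tfap2a+/- library 1, and Camk2a was lowest, at 1448 CPM, in library 1 labelled Tfap2b+/-.

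Some facts about the libraries bear on these values. Library depth ran from 21946800 to 29214975 fragments counted in genes. Tfap2a, as a check of its label, stood at 0.376 ± 0.133 CPM in Tfap2a+/- and 0.536 ± 0.244 CPM in wild type (SD, n = 3), and those groups overlapped. Tfap2b went against its label: the libraries labelled Tfap2b+/- had 32.9, 8.90 and 5.81 CPM of it, against 2.25, 0.715 and 14.8 CPM in wild type, so directions for that group refer to the label only. The 8 pan-neuronal markers were all well detected, with summed levels of 7211 to 8942 CPM in the libraries labelled Tfap2b+/-, 8063 to 10165 CPM in Tfap2a+/- and 8874 to 9983 CPM in wild type. Regional markers differed widely between libraries. Tph2, which makes serotonin in the hindbrain raphe, was at 40.9 CPM in library 1 labelled Tfap2b+/- against at most 1.55 CPM elsewhere, and Ttr of the choroid plexus was at 2761 CPM in wild-type library 2 and 767 CPM in Tfap2a+/- library 1 against at most 244 CPM elsewhere, and these 3 libraries were left out together as an alternative. Other libraries that it kept also stood high for a region: library 2 labelled Tfap2b+/- for the thalamus (score 2.00), library 3 of that label for the olfactory bulb (2.12) and Tfap2a+/- library 2 for the striatum (1.64), on the score explained with Sik1. By group, striatal markers summed to 434 to 852 CPM in the libraries labelled Tfap2b+/-, 1045 to 2934 CPM in Tfap2a+/- and 471 to 1082 CPM in wild type. Of 12 hindbrain and midbrain markers, 8 passed the filter on low counts. All 12 summed to 19.8 to 147 CPM, 3.69 to 9.93 CPM and 4.18 to 14.4 CPM in the same order. Th is on this list and on the olfactory bulb list. It was at 17.6 CPM in library 3 labelled Tfap2b+/-, where Tph2 was at 1.55 CPM. In bulk tissue fewer cells of a type and less RNA per cell cannot be told apart.

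Sik1, whose transcription CREB switches on with neuronal activity, had the widest difference from wild type of the 3 SIK genes. Sik1 (ENSMUSG00000024042.6, chromosome 17, 31844250 to 31855804, GRCm38) was at 13.9, 9.98 and 15.1 CPM across the libraries labelled Tfap2b+/-, against 16.8, 17.1 and 31.5 CPM in wild type. All 3 libraries labelled Tfap2b+/- lay below all 3 of wild type, as they did for 7.63% of all genes. The log2 fold change was -0.75 ± 0.38 (SE), with a 95% interval from -1.61 to 0.11 and an edgeR adjusted p of 0.51, and it was -0.38 without wild-type library 3 and -0.94 without the 3 libraries with high Tph2 or Ttr. In Tfap2a+/- Sik1 was at 29.7, 12.6 and 12.9 CPM, so library 1 lay near the top of wild type and the other two below its lowest value. That log2 fold change was -0.24 ± 0.38 (SE, edgeR adjusted p = 0.999), and it turned to 0.12 without wild-type library 3 and was -0.77 without Tfap2a+/- library 1. Without the 3 libraries with high Tph2 or Ttr it was -0.92.

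Other CREB-driven activity genes were set beside Sik1, as a list of 20 that leaves it out. The list was chosen with earlier results of these data known, so its counts describe and carry no test. All 20 had a lower mean in the libraries labelled Tfap2b+/- than in wild type, with a median log2 fold change of -1.32, and for 15 of 20 the groups did not overlap, where 7.63% of all genes were lower without overlap. Over all genes 49.7% had a higher mean and the median was -0.0012. The libraries labelled Tfap2b+/- had 52.8 ± 9.66 CPM of Arc, which trims synaptic receptors, against 283 ± 169 CPM for wild type (SD, n = 3). Dusp1, a phosphatase of MAP kinases, had 13.8 ± 0.311 CPM against 37.9 ± 13.4 CPM in those groups. No gene of the list passed over all genes (smallest edgeR adjusted p = 0.23), so these are values and not called changes. In Tfap2a+/- 18 of 20 had a lower mean than wild type (median -0.48), where 48.2% of all genes had a higher one. For 0 of 20 the groups did not overlap, where 9.17% of all genes had groups that did not.

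An activity score per library, the mean over those 20 genes of log2 CPM minus each gene's own mean over the 9 libraries, was highest in wild-type library 3 (1.28) and next highest in Tfap2a+/- library 1 (0.38). These were the same 2 libraries in which Sik1 was highest. The scores were -1.05, -0.55 and -0.51 in the libraries labelled Tfap2b+/-, -0.06 and 0.24 in the other two of Tfap2a+/-, and 0.17 and 0.11 in the other two of wild type. Within each group the library with the most Sik1 was also the one with the highest score. The order was not kept below that: library 1 labelled Tfap2b+/- had the lowest score of all but more Sik1 than library 2. The part of these activity genes in the Sik1 values was not tested.

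The other SIK genes had smaller differences. Sik2 (ENSMUSG00000037112.16, chromosome 9, 50892801 to 51009073), a close relative of Sik1 that also acts on CRTC coactivators, was at 35.6, 39.0 and 41.6 CPM across the libraries labelled Tfap2b+/-, 42.9, 45.6 and 46.6 CPM in Tfap2a+/- and 34.99, 32.1 and 48.5 CPM in wild type. The 2 heterozygotes did not overlap, but wild type spanned both. Its exons share 1429 bases with Ppp2r1b on the other strand, from which strand-specific counting separates it. The log2 fold change was 0.0071 ± 0.15 for the libraries labelled Tfap2b+/- over wild type, 0.23 ± 0.15 for Tfap2a+/- over wild type and -0.22 ± 0.15 for the first over the second (SE, edgeR adjusted p = 0.99, 0.999 and 0.57). Leaving out wild-type library 3 put the second at 0.42, leaving out wild-type library 2 put it at 0.12, and neither passed over all genes.

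Sik3 (ENSMUSG00000034135.15, chromosome 9, 46012820 to 46224194), the gene of the Sleepy mutation, was at 220 (library 1), 206 and 171 CPM across the libraries labelled Tfap2b+/-, 216, 195 and 163 CPM in Tfap2a+/- and 172, 182 and 208 CPM in wild type. The groups overlapped throughout. Its 95% intervals ran from -0.22 to 0.39 in the libraries labelled Tfap2b+/- and from -0.28 to 0.33 in Tfap2a+/- against wild type, so these data leave room for folds between 0.859 and 1.31 and between 0.824 and 1.26. Sik3 made up 66.6% to 78.6% of SIK RNA per kb in every library. Its share was 76.2% ± 4.06 in the libraries labelled Tfap2b+/-, 71.3% ± 2.66 in Tfap2a+/- and 71.2% ± 4.14 in wild type (SD, n = 3), with the Sik1 share at 9.13% ± 2.30, 12.03% ± 4.60 and 14.6% ± 3.19.

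Promoter sequences were at hand for 5 of the 10 genes (Sik2, Sik3, Nalcn, Camk2b and Kcnn3), as windows of 300 bases that span the start, from RefSeq on GRCm38.p6. The windows of Sik2 and Sik3 are shown because they held the motifs searched: GCCNNNGGC for AP-2, TGACGTCA for the full CREB element (CRE) and TGACG for the CRE core, on both strands. A full CRE contains the core, and no other overlap arose here. Capitals mark matches to GCCNNNGGC or TGACG, each 5′ to 3′ on the gene's strand.
Sik2, minus strand, chr9:51009024-51009323: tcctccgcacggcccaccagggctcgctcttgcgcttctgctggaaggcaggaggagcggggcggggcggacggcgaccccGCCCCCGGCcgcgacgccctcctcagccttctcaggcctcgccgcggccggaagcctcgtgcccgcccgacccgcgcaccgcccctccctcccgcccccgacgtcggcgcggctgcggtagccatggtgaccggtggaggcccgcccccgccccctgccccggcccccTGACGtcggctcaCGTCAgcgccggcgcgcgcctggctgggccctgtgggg
Sik3, plus strand, chr9:46012570-46012869: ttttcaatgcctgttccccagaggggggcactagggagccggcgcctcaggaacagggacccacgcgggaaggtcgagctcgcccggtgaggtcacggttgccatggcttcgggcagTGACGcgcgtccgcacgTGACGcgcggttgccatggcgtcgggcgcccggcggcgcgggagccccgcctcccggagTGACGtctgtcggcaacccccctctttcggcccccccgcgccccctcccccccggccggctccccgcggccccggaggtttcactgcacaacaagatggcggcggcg
The Sik2 window held 1 AP-2 match, centred 165 bases before the start, and 2 cores, of which the first spans the start and the second follows it. The Sik3 window held 3 cores before its start and no AP-2 match. The windows of Nalcn, Camk2b and Kcnn3 held none of the 3 motifs, and the full CRE was found in none of the 5. Of all 32851 windows of this length, 16.6% held the AP-2 letters, 20.8% the core and 1.79% the full CRE. Sik2 and Sik3 windows were 80.0% and 73.7% G and C. A match describes these letters and not a bound site.

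Camk2a, the alpha subunit of CaMKII and a marker of forebrain excitatory neurons, had the largest differences of the 10 in CPM. Camk2a (ENSMUSG00000024617.16, chromosome 18, 60925618 to 60988152) had 1448, 3018 and 3367 CPM in the libraries labelled Tfap2b+/-, against 4265, 3374 and 3578 CPM in wild type. The groups did not overlap, as for 7.63% of all genes in this direction, but library 3 labelled Tfap2b+/- lay next to wild-type library 2. The log2 fold change was -0.52 ± 0.31 (SE), with a 95% interval from -1.22 to 0.18 and an edgeR adjusted p of 0.55, and it was -0.22 without library 1 labelled Tfap2b+/-. Tfap2a+/- libraries, at 2749, 4126 and 4604 CPM, spread over a wider range than wild type (log2 fold change 0.03 ± 0.31, edgeR adjusted p = 0.999). That value turned to -0.11 without Tfap2a+/- library 3.

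The beta subunit was steadier. Camk2b (ENSMUSG00000057897.14, chromosome 11, 5969644 to 6066362), whose product anchors CaMKII to actin, was at 666, 900.0 and 854 CPM across the libraries labelled Tfap2b+/-, 850.1, 935 and 845 CPM in Tfap2a+/- and 761.8, 860.4 and 911 CPM in wild type. Only library 1 labelled Tfap2b+/- lay clear of the rest, on the low side. The log2 fold changes were -0.07 ± 0.13 for the libraries labelled Tfap2b+/- and 0.05 ± 0.13 for Tfap2a+/- over wild type (SE, edgeR adjusted p = 0.87 and 0.999), and the 95% intervals allow folds of 0.779 to 1.17 and 0.847 to 1.27. The first turned to 0.061 without library 1 labelled Tfap2b+/-, and the second to -0.011 without wild-type library 1.

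The ratio of Camk2b to Camk2a per kb needs no scaling between libraries. It was 0.376, 0.244 and 0.208 in the libraries labelled Tfap2b+/-, 0.253, 0.185 and 0.150 in Tfap2a+/- and 0.146, 0.209 and 0.208 in wild type. Library 1 labelled Tfap2b+/- had the highest ratio, and the third of that group fell among the wild-type values. The mean log2 ratio differed by 0.53 between the libraries labelled Tfap2b+/- and wild type, by 0.05 between Tfap2a+/- and wild type and by 0.48 between the heterozygotes (two-sided exact permutation p = 0.3, 0.9 and 0.3, where 0.1 is the smallest possible for 3 against 3). Without library 1 labelled Tfap2b+/- the first difference was 0.28, and the second turned to -0.15 without Tfap2a+/- library 1.

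Cortex markers differed between the same libraries. A cortex score, from 9 of 10 markers (Fezf1 did not pass the filter on low counts), was lowest in library 1 labelled Tfap2b+/- (-0.75), next lowest in Tfap2a+/- library 1 (-0.36) and highest in Tfap2a+/- library 3 (0.62), which are the libraries with the least, the next least and the most Camk2a. Slc17a7, the vesicular glutamate transporter of cortical neurons, was the most abundant of those markers. It was at 364 CPM in library 1 labelled Tfap2b+/- against 889 to 1601 CPM in the other 8. The next most abundant, Rasgrf2, was not low there, at 227 CPM against 188 to 228 CPM in wild type. Summed cortex markers came to 885 to 2146 CPM in the libraries labelled Tfap2b+/-, 1529 to 2763 CPM in Tfap2a+/- and 2007 to 2582 CPM in wild type. Their part in the Camk2a result was not tested.

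**Figure D2:**
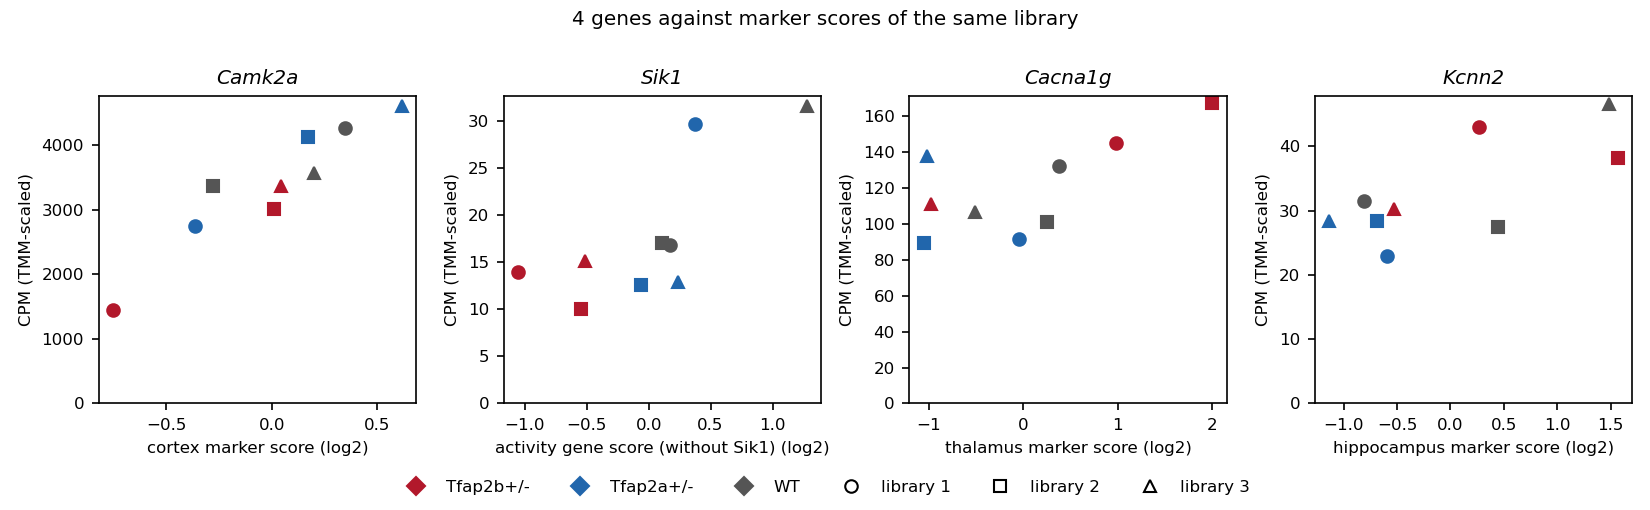
TMM-scaled CPM of Camk2a, Sik1, Cacna1g and Kcnn2 (vertical axes) against the score of a marker list in the same library (horizontal axes, mean log2 CPM of the list relative to the 9 libraries), with colour for genotype and shape for library number; the pairs were chosen after their values were seen. Camk2a was lowest where the cortex score was -0.75 and highest where it was 0.62, and Sik1 was highest at the activity score of 1.28, while Cacna1g was also high in Tfap2a+/- library 3 at a thalamus score of -1.02.

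The family also holds 2 subunits outside the 10 genes. Of the 9 libraries, library 1 labelled Tfap2b+/- had the highest shares of Camk2g and Camk2d, the gamma and delta subunits found in many tissues. These subunits made up 15.6% and 2.16% of CaMKII RNA per kb there, and the Camk2a share was 59.7%. Before division by exon length, Camk2g and Camk2d were at 325 and 158 CPM there. Their levels were not the highest there: Camk2g was at 50.7 CPM per kb against 62.6 in Tfap2a+/- library 3. Camk2d was at 7.02 CPM per kb against 8.29 in wild-type library 2. In the other 8 libraries the Camk2a share was 72.6% to 79.7%. By group the Camk2a share was 69.5% ± 8.69 in the libraries labelled Tfap2b+/-, 76.9% ± 3.69 in Tfap2a+/- and 77.4% ± 2.11 in wild type (SD, n = 3), differences within the spread of the first group.

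**Figure D3:**
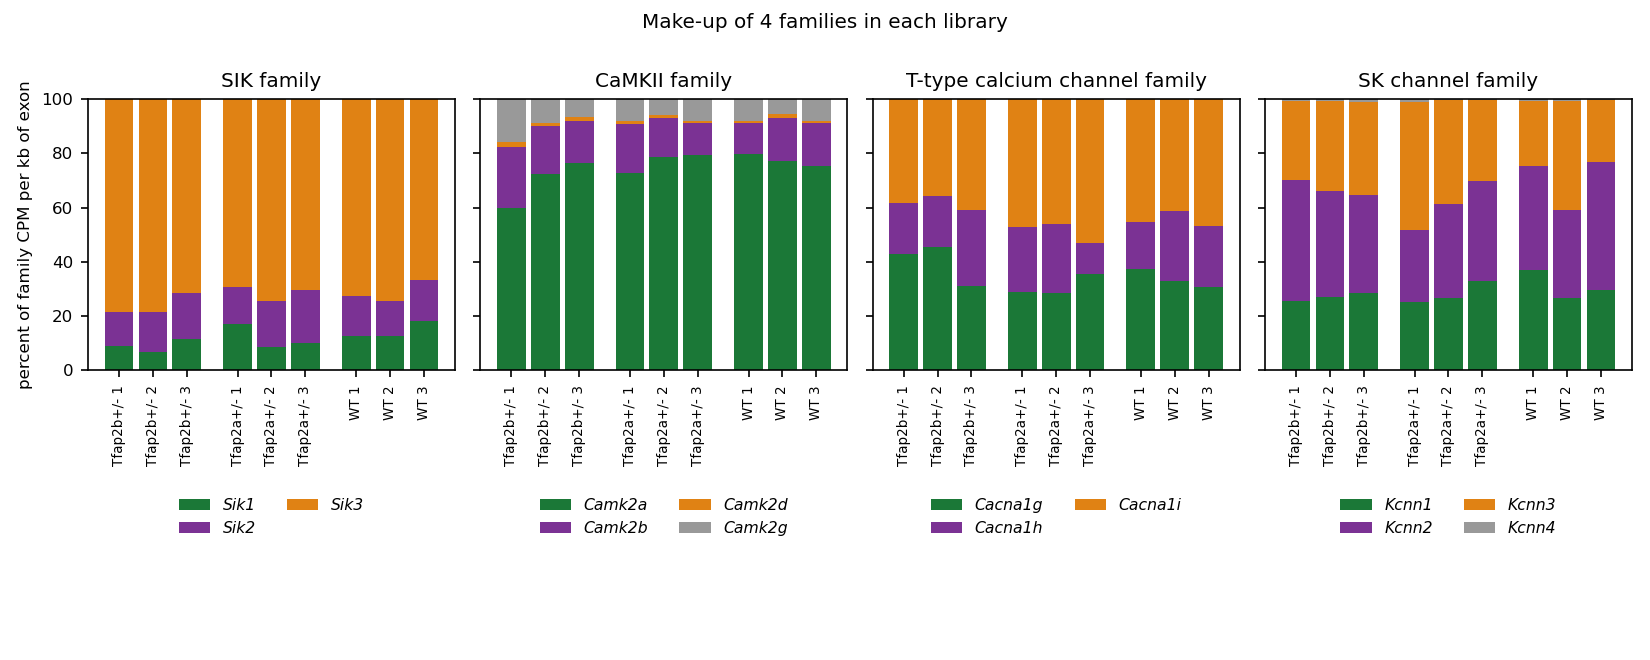
Share of each gene in its family's CPM per kb of exon (vertical axes, percent, bars stacked to 100) in each of the 9 libraries, for SIK, CaMKII, T-type calcium and SK genes. Sik3 and Camk2a hold most of their families in every library (66.6% or more and 59.7% or more), while no gene holds most of the SK family.

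Nalcn (ENSMUSG00000000197.8, chromosome 14, 123276634 to 123627144), the steadiest of the 10, came nearest to a difference in the libraries labelled Tfap2b+/-. It was at 165, 149 and 163 CPM there, against 128, 146 and 140 CPM in wild type (139.6 in library 3). The groups did not overlap, as for 8.84% of all genes in this direction, but the gap between 149 and 146 CPM was smaller than the spread within either group. The log2 fold change was 0.20 ± 0.09 (SE), with a 95% interval from -0.0037 to 0.41 and an edgeR adjusted p of 0.48, and it stayed between 0.15 and 0.26 when each library was left out in turn. In Tfap2a+/- Nalcn was at 152, 146 and 127 CPM, which reached just past both ends of wild type, with a log2 fold change of 0.04 ± 0.09 (SE, edgeR adjusted p = 0.999) and an interval that allows folds of 0.889 to 1.18.

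Fragments that fell in no annotated exon on the counted strand made up 11.1% to 11.8% of the libraries labelled Tfap2b+/-. They made up 8.07% to 8.96% of Tfap2a+/- and 7.30% to 8.86% of wild type. These fragments are counted for no gene. The part of this difference between libraries in the Nalcn values was not tested. Unc80, a scaffold of the NALCN complex, had 669 ± 49.9 CPM in the libraries labelled Tfap2b+/-, against 588 ± 30.0 CPM in wild type (SD, n = 3). For Unc80 the groups did not overlap (edgeR adjusted p = 0.55), as for 8.84% of all genes in this direction. Unc79, its companion subunit, had 87.3 ± 9.91 CPM in the libraries labelled Tfap2b+/-, 95.01 ± 4.20 CPM in Tfap2a+/- and 84.0 ± 7.30 CPM in wild type, with ranges that overlapped.

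T-type channels were described next, ordered by their known place in thalamic bursting. Cacna1g (ENSMUSG00000020866.17, chromosome 11, 94408391 to 94474198), which encodes CaV3.1 of thalamic relay cells and Purkinje cells, was at 145, 167 and 111 CPM across the libraries labelled Tfap2b+/-, 91.9, 89.4 and 138 CPM in Tfap2a+/- and 133, 101 and 106 CPM in wild type. All 3 groups overlapped. The log2 fold changes were 0.32 ± 0.21 and -0.09 ± 0.21 over wild type and 0.41 ± 0.21 for the libraries labelled Tfap2b+/- over Tfap2a+/- (SE, edgeR adjusted p = 0.58, 0.999 and 0.47). The first was 0.18 without library 2 labelled Tfap2b+/-, the second turned to 0.04 without wild-type library 1 and was -0.31 without Tfap2a+/- library 3, and the third was 0.27 without library 2 labelled Tfap2b+/- and 0.63 without Tfap2a+/- library 3.

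Thalamic markers varied widely among these same libraries. The thalamus score, over 10 of 10 markers, was 2.00 and 0.98 in libraries 2 and 1 labelled Tfap2b+/-, the 2 libraries with the most Cacna1g. Prkcd, a kinase of thalamic relay cells, was at 251 CPM in library 2 labelled Tfap2b+/- against at most 79.5 CPM elsewhere. In library 1 of that label Prkcd was not high, at 32.4 CPM. Slc17a6, the most abundant of these markers, was at 324 and 187 CPM in libraries 1 and 2 labelled Tfap2b+/- against at most 92.8 CPM elsewhere. The score did not track Cacna1g in every library, since Tfap2a+/- library 3 had 138 CPM of Cacna1g at a score of -1.02. Summed thalamic markers came to 146 to 979.5 CPM in the libraries labelled Tfap2b+/-, 112 to 256 CPM in Tfap2a+/- and 226 to 296 CPM in wild type, and their part in the Cacna1g values was not tested.

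Cacna1h (ENSMUSG00000024112.16, chromosome 17, 25374285 to 25433783), which encodes CaV3.2, was at 61.4, 67.3 and 95.3 CPM across the libraries labelled Tfap2b+/-, 74.6, 76.4 and 43.4 CPM in Tfap2a+/- and 58.5, 77.0 and 73.6 CPM in wild type. Each heterozygote had 1 library outside the wild-type range, in opposite directions, and neither group was clear of wild type. The log2 fold changes were 0.10 ± 0.24 and -0.11 ± 0.24 (SE, edgeR adjusted p = 0.90 and 0.999), and their signs turned without library 3 labelled Tfap2b+/- (-0.12) and without Tfap2a+/- library 3 (0.12). Library 3 labelled Tfap2b+/- also had the highest olfactory bulb score, 2.12, against 0.64 or less in the others.

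The third T-type gene, Cacna1i (CaV3.3, of the thalamic reticular nucleus), was not among the 10 but completes the family. It held 38.2%, 35.7% and 41.0% of T-type RNA per kb in the libraries labelled Tfap2b+/- and 45.3%, 41.1% and 46.9% in wild type. These shares did not overlap, though by a margin smaller than the spread within a group. In Tfap2a+/- the shares were 47.0%, 46.0% and 53.1%. Cacna1g held 39.8% ± 7.58, 30.9% ± 3.86 and 33.7% ± 3.37 in the libraries labelled Tfap2b+/-, Tfap2a+/- and wild type (SD, n = 3).

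SK channels gave the one unadjusted p under 0.05 among the 10. Kcnn2 (ENSMUSG00000054477.15, chromosome 18, 45268860 to 45686024), which encodes SK2, had 43.0, 38.2 and 30.2 CPM in the libraries labelled Tfap2b+/-, against 22.9, 28.4 and 28.3 CPM in Tfap2a+/-. The heterozygotes did not overlap, as for 9.2% of all genes in this direction. The log2 fold change of the libraries labelled Tfap2b+/- over Tfap2a+/- was 0.49 ± 0.21 (SE), with a 95% interval from 0.02 to 0.95 and an edgeR adjusted p of 0.42. It was 0.27 without the 3 libraries with high Tph2 or Ttr. Wild type, at 31.6, 27.5 and 46.6 CPM, reached above the first group and down among the values of the second. Against it, the log2 fold change was 0.08 ± 0.21 in the libraries labelled Tfap2b+/- and -0.41 ± 0.21 in Tfap2a+/- (SE, edgeR adjusted p = 0.91 and 0.999), the first turned to -0.067 without wild-type library 2, and the second was -0.15 without wild-type library 3.

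Hippocampal markers varied in part with Kcnn2, which is strongly expressed in hippocampal pyramidal cells. The hippocampus score, over 10 of 10 markers, was 1.48 in wild-type library 3 and 1.56 in library 2 labelled Tfap2b+/-, where Kcnn2 was 46.6 and 38.2 CPM. It was below 0 in all 3 Tfap2a+/- libraries (-0.59, -0.69 and -1.14). Library 1 labelled Tfap2b+/- had 43.0 CPM of Kcnn2 at a score of 0.265, and wild-type library 2 had 27.5 CPM at 0.44. Summed hippocampal markers came to 125 to 285 CPM in the libraries labelled Tfap2b+/-, 103 to 123 CPM in Tfap2a+/- and 140.2 to 291 CPM in wild type. Their part in the difference was not tested.

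Kcnn3 (ENSMUSG00000000794.9, chromosome 3, 89520164 to 89675132), which encodes SK3 and paces dopamine neurons, was at 39.0, 45.5 and 40.0 CPM across the libraries labelled Tfap2b+/-, 57.7, 44.2 and 31.9 CPM in Tfap2a+/- and 27.7, 47.7 and 31.7 CPM in wild type. The groups overlapped, and Tfap2a+/- and wild type each spanned a wider range than the libraries labelled Tfap2b+/-. The log2 fold changes over wild type were 0.22 ± 0.24 and 0.32 ± 0.24 (SE, edgeR adjusted p = 0.75 and 0.999). Leaving out each library, the first ran from 0.064 without wild-type library 1 to 0.49 without wild-type library 2, and the second from 0.095 without Tfap2a+/- library 1 to 0.60 without wild-type library 2. Without the 3 libraries with high Tph2 or Ttr the first was 0.53 and the second 0.36. The library with the most Kcnn3, Tfap2a+/- library 1, had the highest striatum score (1.90) and a choroid plexus and ependyma score of 1.62. Next came wild-type library 2 and library 2 labelled Tfap2b+/-. Their striatum scores were 0.30 and -0.47, and their choroid plexus and ependyma scores were 3.01 and 0.64. The part of these markers in the Kcnn3 values was not tested.

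Within the SK family no gene dominated. Kcnn2 held 40.1% ± 4.37, 32.6% ± 5.54 and 39.3% ± 7.41 of SK RNA per kb in the libraries labelled Tfap2b+/-, Tfap2a+/- and wild type, and Kcnn3 held 32.3% ± 2.75, 38.5% ± 8.91 and 29.02% ± 9.65 (SD, n = 3). Kcnn1, the SK1 gene, held 25.3% to 37.1% over the 9 libraries, and Kcnn4, the intermediate-conductance channel of blood and epithelial cells, held 0.920% or less.

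**Figure D4:**
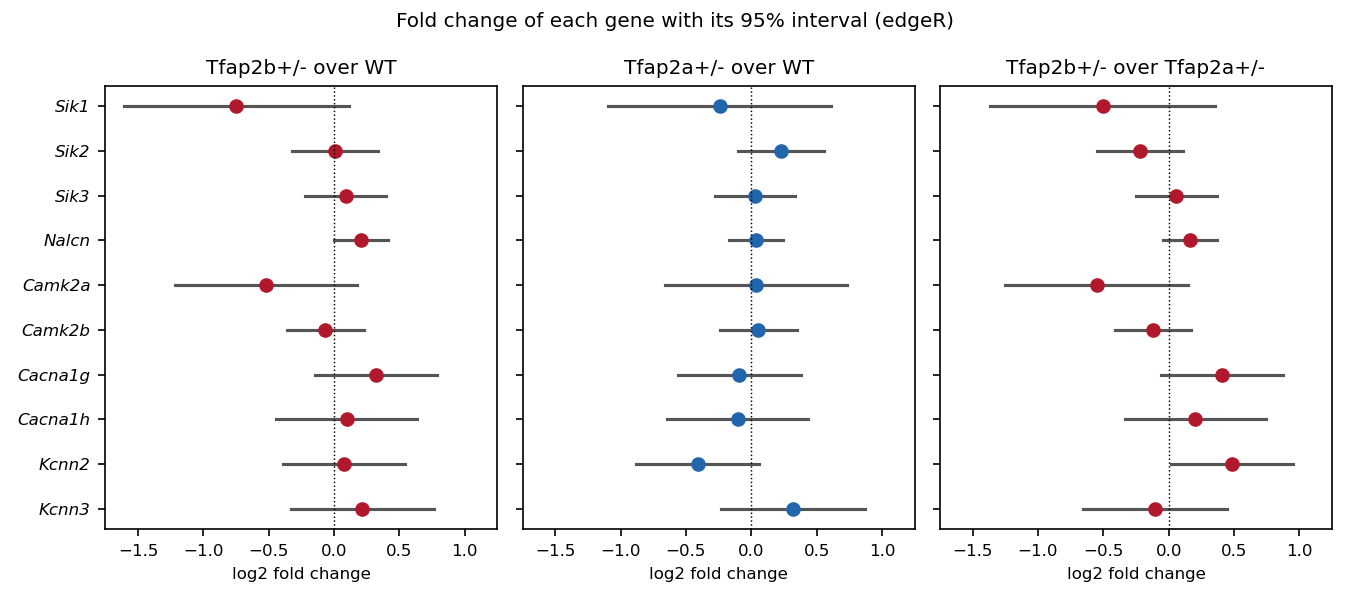
Log2 fold change of each of the 10 genes (points) with its 95% interval (lines) from edgeR, for the libraries labelled Tfap2b+/- over wild type, Tfap2a+/- over wild type and the first over the second. Every interval holds 0 except that of Kcnn2 between the heterozygotes (0.02 to 0.95), and the widest are those of Sik1 and Camk2a.

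Against wild type 7 of the 10 genes had a higher mean in the libraries labelled Tfap2b+/- (median log2 fold change 0.08). The share over all genes was 49.7%. In Tfap2a+/- 6 of 10 had a higher mean (median 0.03), where 48.2% of all genes did. Both comparisons share the wild-type libraries and are not independent. Ignoring sign, the median size was 0.15 and 0.10 for the 10 genes and 0.16 and 0.11 for all genes, and between the heterozygotes it was 0.21 for the 10 genes and 0.17 for all genes. Groups that did not overlap were seen for 3 of 10 genes (Sik1, Camk2a and Nalcn) in the libraries labelled Tfap2b+/- against wild type, where the background was 16.5%, for 0 of 10 in Tfap2a+/-, where it was 9.17%, and for 2 of 10 between the heterozygotes, where it was 17.2%. Of those 2, Sik2 was lower in the libraries labelled Tfap2b+/-, as were 8.03% of all genes without overlap, and Kcnn2 was higher.

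The partners of these kinases and channels were examined as 2 lists, also chosen with earlier results of these data known. Of 31 signalling partners (LKB1, protein kinase A, CRTC, class IIa deacetylases, other CaM kinases, calmodulins and calcineurin), 0 passed over all genes in any comparison. In the libraries labelled Tfap2b+/- 22 of 31 had a lower mean than wild type (median log2 fold change -0.12). Over all genes 49.7% had a higher mean. Groups lay below wild type without overlap for 9 of 31, where 7.63% of all genes did. Ppp3r1, the regulatory subunit of calcineurin, had 557 ± 126 CPM there against 724 ± 30.5 CPM in wild type, and Camk1d, a CaM kinase I, had 215 ± 46.9 against 304 ± 66.8 CPM (edgeR adjusted p = 0.47 and 0.46). Library 1 labelled Tfap2b+/-, with its cortex score of -0.75, was the lowest of that group for both, at 412 CPM of Ppp3r1 against 618 and 641 CPM in libraries 2 and 3, and for Camk4 at 170 CPM against 359 and 394 CPM. The part of cortex markers in these values was not tested. In Tfap2a+/- 11 of 31 were lower than wild type (median 0.03), where 48.2% of all genes were higher. Prkar2b, which holds protein kinase A inactive, averaged 93.9 ± 18.3 CPM there, with 64.2 ± 6.28 CPM for wild type (edgeR adjusted p = 0.999). Over Tfap2a+/- libraries 1 to 3 Prkar2b was at 112, 94.0 and 75.6 CPM, and the striatum score was 1.90, 1.64 and 0.04. Its part in the Prkar2b values was not tested. Between the heterozygotes Camk4, the nuclear CaM kinase that phosphorylates CREB, averaged 308 ± 120.1 CPM under the label Tfap2b+/- and 541 ± 91.7 CPM in Tfap2a+/- (log2 fold change -0.81 ± 0.28 (SE), edgeR adjusted p = 0.38).

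Of 36 other channel, NALCN complex and calcium pump genes, 34 were found by symbol and tested, and 0 passed in any comparison. The medians lay near 0, at -0.07 in the libraries labelled Tfap2b+/- and 0.03 in Tfap2a+/- against wild type. In that order 14 and 18 of 34 had a higher mean, where 49.7% and 48.2% of all genes did. Hcn4, a pacemaker channel abundant in the thalamus, was at 20.7, 21.4 and 15.0 CPM across the libraries labelled Tfap2b+/- against 5.64, 11.4 and 5.52 CPM in wild type (log2 fold change 1.33 ± 0.32 (SE), edgeR adjusted p = 0.32). All 3 libraries lay above wild type, as they did for 8.84% of all genes. The thalamus score was 0.98, 2.00 and -0.98 in these libraries and the hindbrain and midbrain score was 4.05, 0.52 and 0.44, where no other library was above 0 on the second. The second score includes Th, also an olfactory bulb marker, at 17.6 CPM in library 3 labelled Tfap2b+/-. The part of either list in the Hcn4 values was not tested. Cacna2d3, an auxiliary subunit of calcium channels, was at 134, 129 and 131 CPM in Tfap2a+/- against 90.7, 89.9 and 93.8 CPM in wild type, with little spread in either group (log2 fold change 0.52 ± 0.17 (SE), edgeR adjusted p = 0.999). In the libraries labelled Tfap2b+/- it was at 57.2, 100.02 and 77.1 CPM. Pde10a, a phosphodiesterase of striatal neurons, was at 580, 517 and 204 CPM in Tfap2a+/- against 80.2, 142 and 100.4 CPM in wild type. The striatum score was 1.90, 1.64 and 0.04 in Tfap2a+/- libraries 1 to 3, and the last lay below wild-type library 2 (0.30). The part of striatal markers in the Cacna2d3 values was not tested.

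The genes whose levels ran most like those of the 10 were sought over all tested genes, by Pearson's r of log2 CPM over the 9 libraries. The libraries share genotype and regional make-up, and the top of 17355 values is high by selection, so these values describe and carry no test. Camk2a ran closest to Pik3r2 (r = 0.99), a regulatory subunit of PI3 kinase, Shank2 (0.99), a scaffold of excitatory synapses, and Coro1a (0.99), an actin regulator. Nalcn ran with the predicted genes Gm45151 (0.97) and Gm29480 (0.96). Cacna1g ran with the phosphatase gene Inpp5b (0.97), Kcnn2 with the histone methyltransferase gene Ezh1 (0.96), and Kcnn3 with Shb (0.95) and the forebrain transcription factor gene Six3 (0.95). Sik1 ran closest to Topors (0.94), Sik2 to Cr1l (0.97), Sik3 to Pdf (0.96), Cacna1h to Sh3bp4 (0.97) and Camk2b to Caml (0.96). None of the 10 was among the 3 nearest genes of another of the 10.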

How the data were processed

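Per the labels' protocols, polyadenylated RNA of brain tissue was made into strand-keeping dUTP libraries. The authors deposited whole-number counts per gene and library in STAR's layout. Cutadapt 2.4, edgeR, STAR 2.6.1d and GRCm38.p6 are listed among the tools and builds in the submitters' processing notes, with no annotation release. Reverse-strand counts were used, and rows that name no gene were left out. Those rows were reads in no exon on that strand (7.30% to 11.8% of fragments), multiply mapped (5.33% to 6.20%), unmapped (1.21% to 1.74%) and ambiguous (1.10% to 1.21%). Of 54446 identifiers 54409 were found in GENCODE M21, ignoring versions, which gave symbols, coordinates and exon lengths. Replicates of a genotype differed beyond sampling noise (chi-square per degree of freedom 19.8 or more).

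filterByExpr, TMM and the quasi-likelihood F-test of edgeR 4.0.16 (R 4.3.3) were fitted to all 9 libraries with genotype as the only term, and adjusted p-values under 0.05 over 17355 genes were called. Log2 CPM used a prior count of 2. A count of 0 allows up to 0.101 to 0.141 CPM (3 counts), for counting error only. The fit was also run on counts simulated with its own spread and no regional differences between libraries, so that run does not cover such differences. Named were the 10 genes, a selection of those of smallest p in each related list (at most 4 a comparison), the nearest genes by correlation and the most abundant markers. Cacna1i, Camk2d, Camk2g and Kcnn4, and which of the listed genes to print, were chosen after their values were seen. Members and lists were chosen with earlier results of these data known. Alternatives tried were the DESeq2 1.42.0 test, DESeq2 size factors, no filter, unstranded counts, a replicate block, only the groups compared and each library left out. The 3 libraries with high Tph2 or Ttr were left out together as an alternative chosen after seeing the data.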

Additional observations from a re-analysis of the deposited data

How the results depend on the processing

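None of the 10 genes passed over all genes under any alternative, with DESeq2 included. Against 0 genes with edgeR in each comparison, DESeq2 called 175 genes in the libraries labelled Tfap2b+/- and 30 in Tfap2a+/- against wild type, and 228 between the heterozygotes. Without the low-count filter edgeR called 2 genes in Tfap2a+/- against wild type and 7 between the heterozygotes. Without the 3 libraries of wild type (2), Tfap2a+/- (1) and label Tfap2b+/- (1) with high Tph2 or Ttr, it called 2 in the libraries labelled Tfap2b+/- and 1 between the heterozygotes. With each library left out in turn the counts ran from 0 to 4, 0 to 3 and 0 to 31, the last without library 3 labelled Tfap2b+/-.

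Some directions turned, the widest being that of Sik1 between the heterozygotes, at -0.51 with all libraries and 0.030 without Tfap2a+/- library 1, and the cause was not tested. Leaving out each library, the log2 fold changes of Tfap2a+/- over wild type ran from -0.77 to 0.12 for Sik1, -0.064 to 0.14 for Sik3, -0.0093 to 0.12 for Nalcn, -0.11 to 0.23 for Camk2a, -0.011 to 0.11 for Camk2b, -0.31 to 0.040 for Cacna1g and -0.24 to 0.12 for Cacna1h. Those of the libraries labelled Tfap2b+/- over wild type ran from -0.10 to 0.20 for Sik2, -0.15 to 0.061 for Camk2b, -0.12 to 0.23 for Cacna1h and -0.067 to 0.33 for Kcnn2. Between the heterozygotes they ran from -0.72 to 0.030 for Sik1, -0.052 to 0.16 for Sik3, -0.21 to 0.00020 for Camk2b, -0.022 to 0.34 for Cacna1h and -0.30 to 0.13 for Kcnn3. The log2 ratio of Camk2b to Camk2a ran from -0.15 to 0.23 for Tfap2a+/- over wild type. Without the 3 libraries with high Tph2 or Ttr, that ratio was -0.064, Sik3 was at -0.085 in Tfap2a+/- and -0.0028 in the libraries labelled Tfap2b+/-, where Camk2b was at 0.077, Kcnn2 at -0.18 and Sik2 at -0.044, and Kcnn3 was at 0.17 between the heterozygotes. Without the low-count filter Sik2 was at -0.0067 in the libraries labelled Tfap2b+/-.

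No pairing of the libraries by replicate number was evident. With 3 libraries a group and wide regional differences between them, a pairing could be missed. Same-numbered libraries had deviations from their group means correlated between -0.35 and 0.34, over 0.1 in 3 of 9 pairs, and 2 of 9 libraries correlated best with their own number. With the replicate block 0 genes were called in each comparison, and Camk2a in Tfap2a+/- over wild type was at -0.037. With 3 libraries a group, Sik1 and Camk2a could not be measured to better than about the intervals given for them.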
